A study of Rattus norvegicus with 14 samples.

Results

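A set of 8 genes of tendon and of cartilage-type matrix was followed in the soleus of the rat, a calf muscle of mostly slow fibres, after the muscle had been cut from its tendon: Tnmd, Scx, Comp, Mkx, Thbs4, Kera, Chad and Cilp. They were chosen by name, as all probe sets whose single gene symbol was one of these 8. Of the 8 genes, 5 had a probe set named by the platform annotation, 1 each: Tnmd, Scx, Comp, Thbs4 and Chad. No probe set carried the names Mkx, Kera or Cilp, so these 3 were not analysed here. All 5 measured genes passed the filter on low signals and were among 11056 genes tested, of 14217 genes with a probe set of their own.

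The study measured 14 soleus muscles of male Sprague Dawley rats, 1 array each. The control group held 4 left muscles that were not tenotomized (controls 1 to 4). The short-term group held 6 right muscles tenotomized for 1 week (rats 12 and 13), 2 weeks (rats 25 and 27), 3 weeks (rat 32) or 4 weeks (rat 42). The long-term group held 4 right muscles tenotomized for 6 weeks (rats 61 and 62), 16 weeks or 22 weeks (1 rat each). Control 1 was the left leg of rat 62 and control 4 that of rat 61, so the 14 muscles stood for 12 rats. All short-term rats differed from those of the controls. Age was not given in the labels, the weeks after tenotomy differed from rat to rat, and the controls were the legs opposite a tenotomy in at least 2 rats. Whether any tendon tissue was taken with the muscle is not given in the sources used here.

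Tendon cells build a rope of aligned collagen fibres, and cartilage cells a gel rich in proteoglycans. Both secrete matrix proteins that help to assemble and space the fibres. Scx (scleraxis) and Mkx (mohawk) are transcription factors of the tendon lineage. Tnmd (tenomodulin) is a membrane protein of mature tendon cells and a standard marker of them. Comp (cartilage oligomeric matrix protein, a thrombospondin) and Thbs4 (thrombospondin 4) bind collagen and other matrix proteins, and Thbs4 is also made in muscle, at its junction with tendon. Kera (keratocan) and Chad (chondroadherin) belong to the leucine-rich repeat proteins of matrix, and Cilp is a protein of the cartilage interterritorial matrix.

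Among the 5 genes, Tnmd, Comp and Thbs4 were higher in short-term muscle than in control muscle and lower again in long-term muscle, while Scx and Chad passed the test in neither comparison. The upstream sequences of the 3 genes that passed are shown here, so that they can be read beside the values. They share the direction of their group changes, and no shared regulation was tested. They were taken from RefSeq (GRCr8), from 250 bases before to 50 bases after the start of the gene, 5′ to 3′ on the strand of the gene. Capitals mark each match to CANNTG, the E box, which basic helix-loop-helix factors such as Scx bind. Tnmd lies on the plus strand at chrX:101350182-101350481, and Comp and Thbs4 lie on the minus strand at chr16:19089499-19089798 and chr2:25760296-25760595.
Tnmd: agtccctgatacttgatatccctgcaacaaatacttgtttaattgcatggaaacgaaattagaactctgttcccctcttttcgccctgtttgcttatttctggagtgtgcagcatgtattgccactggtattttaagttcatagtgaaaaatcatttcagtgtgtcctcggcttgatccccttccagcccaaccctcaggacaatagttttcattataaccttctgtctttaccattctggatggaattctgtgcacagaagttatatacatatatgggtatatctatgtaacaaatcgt
Comp: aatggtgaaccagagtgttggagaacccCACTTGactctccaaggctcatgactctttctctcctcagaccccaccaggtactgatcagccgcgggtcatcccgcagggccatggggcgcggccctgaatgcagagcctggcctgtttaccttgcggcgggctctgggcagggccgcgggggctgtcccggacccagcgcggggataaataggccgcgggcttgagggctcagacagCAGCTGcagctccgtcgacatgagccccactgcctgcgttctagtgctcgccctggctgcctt
Thbs4: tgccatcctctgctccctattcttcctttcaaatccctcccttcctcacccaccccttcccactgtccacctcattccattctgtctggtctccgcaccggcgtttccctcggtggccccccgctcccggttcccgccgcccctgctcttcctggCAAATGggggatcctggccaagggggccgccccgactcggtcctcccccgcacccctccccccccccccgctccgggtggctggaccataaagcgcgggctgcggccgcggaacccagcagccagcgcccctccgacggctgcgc

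The Tnmd window held 0 E boxes, the Comp window 2 and the Thbs4 window 1. In Comp they were CACTTG at -222 and CAGCTG at -13, and in Thbs4 CAAATG at -95, counted from the start of the gene to the first base of the match. Chad, which did not pass the test in short-term muscle, held 3, and the table held no window for Scx. Of 33469 windows of 300 bases, 72.1% held at least 1 E box and 16.6% held 3 or more. The core ACAAAG, which Sox factors of cartilage bind, was searched on both strands, does not overlap the E box, was found in 18.8% of all windows and gave 0 matches in the windows of Tnmd, Comp, Thbs4 and Chad. A match is a description of letters in this window, not a site in use.

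Signals are given as probe set signals on a linear scale, each array brought to a common median over the tested genes. Across arrays, the deposited medians ran from 29.8 to 49.3. As a check of the tissue, a list of 14 genes of slow fibres was tested, of which Acta1, Ckm, Mb and Ttn are made in all skeletal muscle. No gene of fast fibres was set beside them, so the list shows skeletal muscle and does not tell soleus from a faster muscle. Its summed signal lay between 97645 and 124470 on the controls, 86717 and 138460 on the short-term arrays and 110350 and 138310 on the long-term arrays. Myh7, the slow myosin heavy chain, named as the defining marker after its value was seen, stood at a geometric mean of 10050 in control, 10430 in short-term and 10500 in long-term muscle. The ratio of 3′ to 5′ signals of Gapdh, which tracks how intact the RNA was, was 1.33 ± 0.178 (SD, n = 6) on short-term arrays, 2.08 ± 0.573 (n = 4) on controls and 1.78 ± 0.672 (n = 4) on long-term arrays. The same ratio of actin went the other way between the first 2, with 2.62 ± 0.655 and 1.86 ± 0.373. Both differed between short-term and control arrays with p = 0.0286 each (exact 2-sided permutation test; 0.0858 when adjusted for the 6 tests made), and their part in the results below was not tested.

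Tnmd, the membrane protein of tendon cells, read 397, 258, 428 and 715 in controls 1 to 4. In short-term muscle it read 2163 and 372 at 1 week, 1479.8 and 6427 at 2 weeks, 3379 at 3 weeks and 2372 at 4 weeks. Thus 5 of the 6 short-term muscles lay above every control, and rat 13 at 1 week lay within the range of the controls. In long-term muscle Tnmd read 858 and 440 at 6 weeks, 443 at 16 weeks and 54.5 at 22 weeks, so that 2 values lay within the control range, rat 61 at 6 weeks above it and the 22-week muscle below it.

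Comp, the cartilage oligomeric matrix protein, read 94.2, 78.5, 195 and 118 in controls 1 to 4. In short-term muscle it read 1464 and 257 at 1 week, 395 and 251 at 2 weeks, 874 at 3 weeks and 694 at 4 weeks. Every short-term muscle lay above every control, and the highest and lowest short-term values differed 5.83-fold. In long-term muscle Comp read 199 and 59.0 at 6 weeks, 93.0 at 16 weeks and 26.98 at 22 weeks, all below every short-term muscle.

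Thbs4, thrombospondin 4, read 1593, 1648, 2029.5 and 1976 in controls 1 to 4. In short-term muscle it read 5494 and 3869 at 1 week, 4273 and 5899 at 2 weeks, 5398 at 3 weeks and 4847 at 4 weeks. The groups did not overlap, and Thbs4 was the most even of the 3 genes: its highest and lowest short-term values differed 1.52-fold, against 17.3-fold for Tnmd. In long-term muscle it read 2774 and 1659 at 6 weeks, 1243 at 16 weeks and 367 at 22 weeks, all below every short-term muscle.

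**Figure D1:**
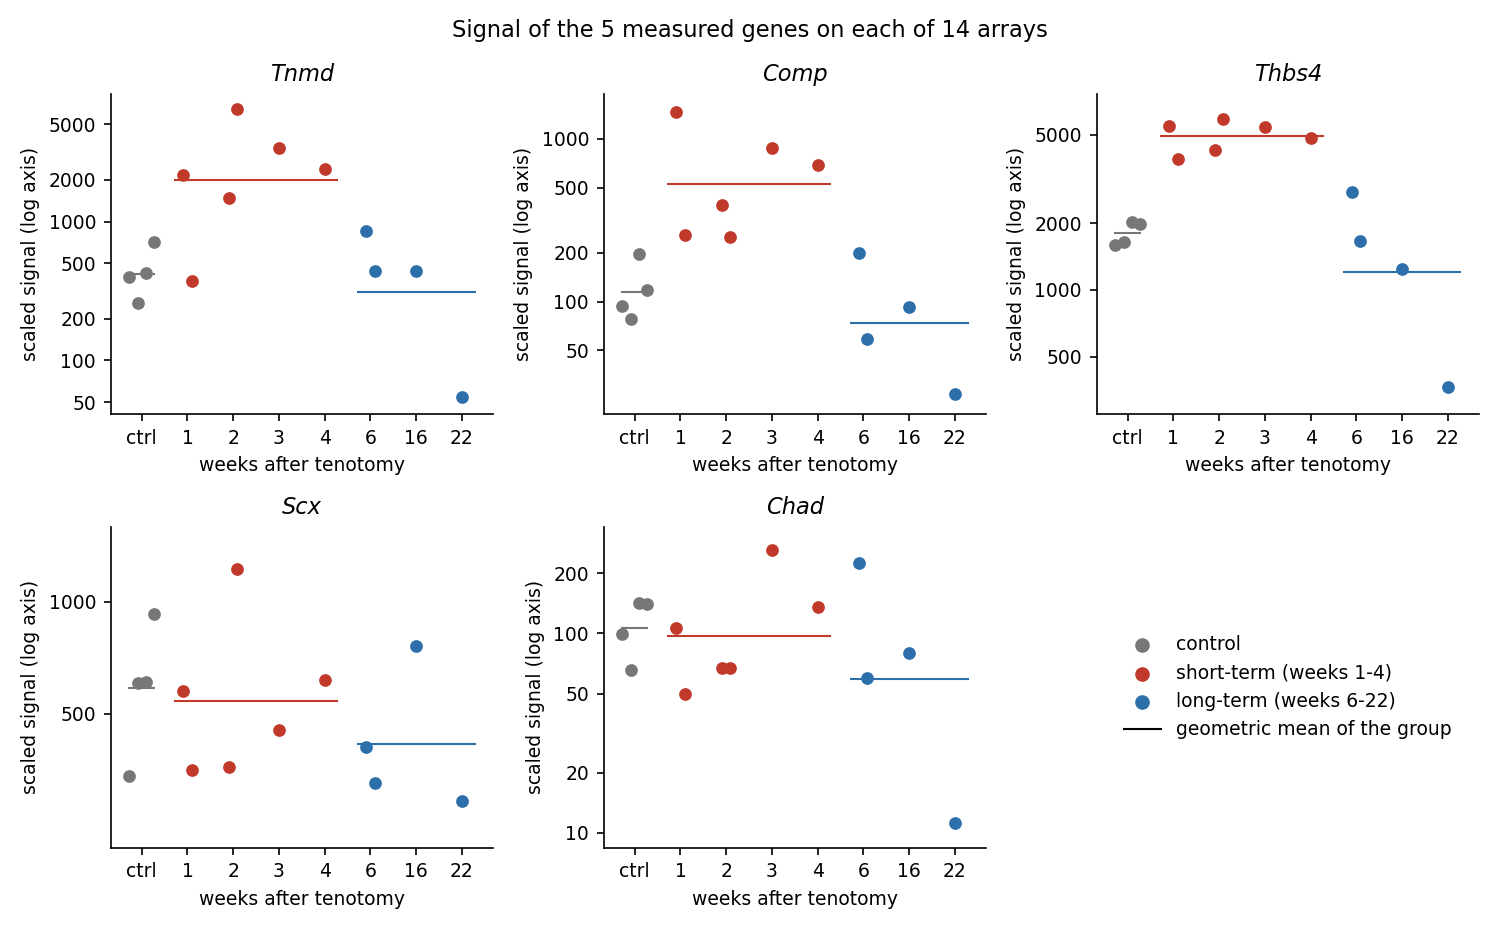
Scaled signal (log axis) of Tnmd, Comp, Thbs4, Scx and Chad on each of the 14 arrays against weeks after tenotomy, with weeks evenly spaced and not to scale; points are muscles, coloured by group, and lines are the geometric means of the groups. Comp and Thbs4 are above every control in all 6 short-term muscles, Tnmd is so in 5 of 6, and the 22-week muscle is the lowest of the 14 for all 5 genes.

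Scx, the transcription factor of the tendon lineage, read 341, 607, 611 and 928 in controls 1 to 4. In short-term muscle it read 575 and 354 at 1 week, 361 and 1221 at 2 weeks, 453 at 3 weeks and 618 at 4 weeks, and in long-term muscle 408 and 327 at 6 weeks, 761 at 16 weeks and 291 at 22 weeks. The 3 groups overlapped, and only the 2-week muscle of rat 27 stood above the controls; the same muscle held the highest Tnmd.

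Chad, a collagen-binding leucine-rich repeat protein of cartilage, read 99.9, 65.3, 143 and 141 in controls 1 to 4. In short-term muscle it read 106 and 49.99 at 1 week, 67.5 and 67.4 at 2 weeks, 263 at 3 weeks and 136 at 4 weeks. In long-term muscle it read 225 and 59.9 at 6 weeks, 79.8 at 16 weeks and 11.2 at 22 weeks. The groups overlapped, and the 3-week muscle and the 6-week muscle of rat 61 were above all controls.

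Short-term muscle was set against control muscle first. The groups were compared in 1 fit over all 14 arrays with limma, with Benjamini-Hochberg adjustment over all genes tested and a threshold of 0.05. Tnmd rose by 2.24 on the log2 scale (SE 0.72, adjusted p = 0.0197), or 4.72-fold. Comp rose by 2.22 (SE 0.54, adjusted p = 0.00373), or 4.65-fold, and Thbs4 by 1.45 (SE 0.37, adjusted p = 0.00539), or 2.73-fold. In whole muscle, more cells of a type and more RNA per cell cannot be told apart, and since control and short-term muscles came from different rats, neither can tenotomy and cohort. The median of all tested genes was -0.12 in this comparison, so relative to the median gene the 3 changes were 2.36, 2.34 and 1.57. Thus 3 of the 5 measured genes were called higher, where 17.9% of all genes tested were, and 0 were called lower, where 26.5% were. Of all calls 40.3% were higher, and between 23.7% (common median over all probe sets) and 56.0% (common 2% trimmed mean) under other scalings, while the 3 genes stayed higher under each. The groups did not overlap, with short-term higher, for 2 of the 5 (Comp and Thbs4), and for 11.7% of all genes. By size of change Tnmd stood at rank 151 and Comp at rank 160 of the 11056 genes. The Tnmd call was lost without control 2 (change 2.00, adjusted p = 0.0611) and with no filter on low signals (2.12, adjusted p = 0.0588); over all alternatives its adjusted p lay between 0.0025 and 0.0611.

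Scx had a change of -0.11 (SE 0.35, adjusted p = 0.812), with a 95% interval from -0.86 to 0.63, and Chad of -0.13 (SE 0.62, adjusted p = 0.877), with an interval from -1.46 to 1.19. The intervals leave room for a change of either sign, and the sign itself turned under other settings: Scx was 0.10 after quantile normalization and Chad 0.11 with the rat as a block. Relative to the median gene the values were 0.01 and -0.01.

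The second comparison asks whether long-term muscle still differed from control muscle. None of the 5 genes passed limma's test, nor did any of the 11056 (0 called, or 0%; 246 genes, 2.23%, had an unadjusted p under 0.05, with 0 of the 5 among them). Tnmd had a change of -0.45 (95% interval -2.12 to 1.23), Comp of -0.63 (-1.88 to 0.61), Thbs4 of -0.58 (-1.44 to 0.28), Scx of -0.50 (-1.31 to 0.32) and Chad of -0.86 (-2.31 to 0.59), each with adjusted p = 1. The 5 values were below 0 together, and the 22-week muscle weighed on each. Without it Tnmd was 0.39, Thbs4 -0.01, Comp -0.15, Chad -0.06 and Scx -0.33.

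The third comparison sets long-term against short-term muscle. It shares the long-term arrays with the second comparison and the short-term arrays with the first. Tnmd fell by 2.68 (SE 0.72, adjusted p = 0.00728). Comp fell by 2.85 (SE 0.54, adjusted p = 0.000689). Thbs4 fell by 2.03 (SE 0.37, adjusted p = 0.000577). The median gene was at 0.12 here, so the relative changes were -2.81, -2.98 and -2.15. Thus 3 of the 5 were called lower, against 17.4% of all genes, and Comp and Thbs4 did not overlap, against 11% of all genes. Without the 22-week muscle the falls were smaller: Tnmd had -1.85, Comp -2.37 and Thbs4 -1.46, all still past the threshold. Scx had a change of -0.38 (adjusted p = 0.392, interval -1.13 to 0.36) and Chad of -0.73 (adjusted p = 0.360, interval -2.05 to 0.60), and Chad was 0.07 without the 22-week muscle.

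**Figure D2:**
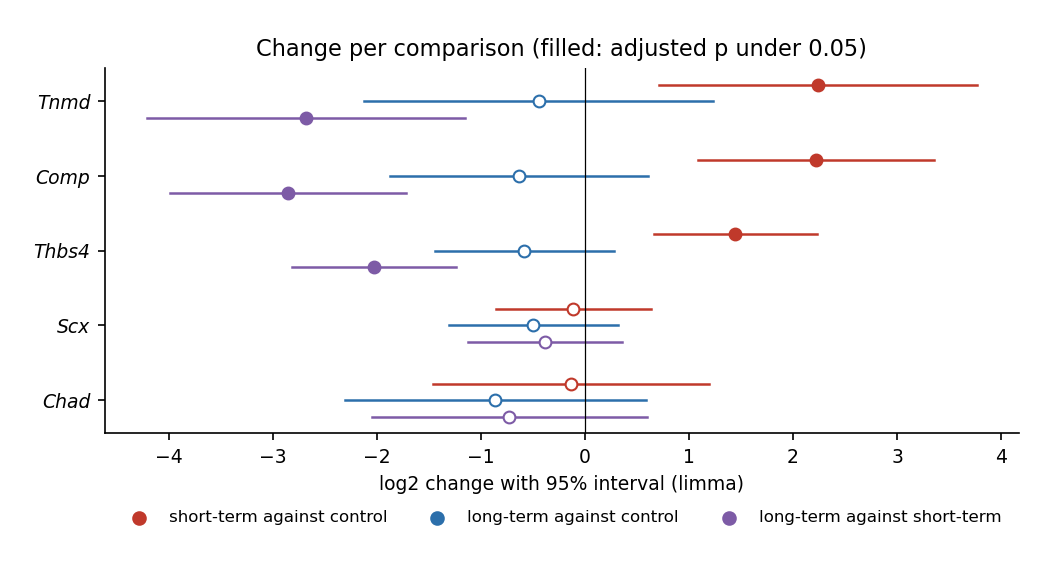
Log2 change of each gene in the 3 comparisons with its 95% interval from limma; filled points passed an adjusted p of 0.05. Tnmd, Comp and Thbs4 lie above 0 in short-term against control and below 0 in long-term against short-term, while the intervals of Scx and Chad span 0 in all 3.

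Single weeks were compared with the controls where a week held 2 muscles. At 1 week Comp was up by 2.42 (SE 0.65, limma adjusted p = 0.0219) and Thbs4 by 1.36 (SE 0.24, adjusted p = 0.00322), while Tnmd had 1.09 (SE 0.70, adjusted p = 0.288). Thus 2 of the 5 were called higher, against 9.47% of all genes. At 2 weeks Tnmd was up by 2.87 (SE 0.70, adjusted p = 0.00947) and Thbs4 by 1.48 (SE 0.24, adjusted p = 0.00125), while Comp had 1.46 (SE 0.65, adjusted p = 0.0973). Again 2 of the 5 were called higher, against 16.3% of all genes. That Comp passed at 1 week and Tnmd at 2 weeks does not show that their time courses differ, which was not tested. The 2 muscles of a week differed: at 1 week rat 12 and rat 13 read 1464 and 257 for Comp, and 2163 and 372 for Tnmd, and at 2 weeks rat 25 and rat 27 read 1479.8 and 6427 for Tnmd.

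At 6 weeks 0 of the 5 genes and 0 (0%) of all genes passed limma's test, while 469 genes (4.24%) had an unadjusted p under 0.05, with 0 of the 5 among them. Thbs4 had a change of 0.25 (interval -0.27 to 0.77), Tnmd of 0.55 (-1.0004 to 2.09), Chad of 0.12 (-0.99 to 1.23), Comp of -0.08 (-1.51 to 1.35) and Scx of -0.68 (-1.70 to 0.33). Rats 61 and 62 gave both legs, which allows values with no test. In rat 61 the tenotomized right leg read 1.40-fold the left for Thbs4, 1.2-fold for Tnmd, 1.68-fold for Comp, 1.595-fold for Chad and 0.439-fold for Scx. In rat 62 the ratios were 1.04 for Thbs4, 1.11 for Tnmd, 0.626 for Comp, 0.600 for Chad and 0.959 for Scx. Scx was lower in the right leg of both rats, and Comp and Chad were higher there in rat 61 and lower in rat 62, also in the deposited signals. The direction of Tnmd and Thbs4 depended on the scaling. Scaled Tnmd was higher in the right leg of both rats, but its deposited signals were 862 on the right and 913 on the left in rat 61, and 452 and 467 in rat 62. Deposited Thbs4 was 2789 on the right and 2523 on the left in rat 61, and 1706 and 1875 in rat 62.

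**Figure D3:**
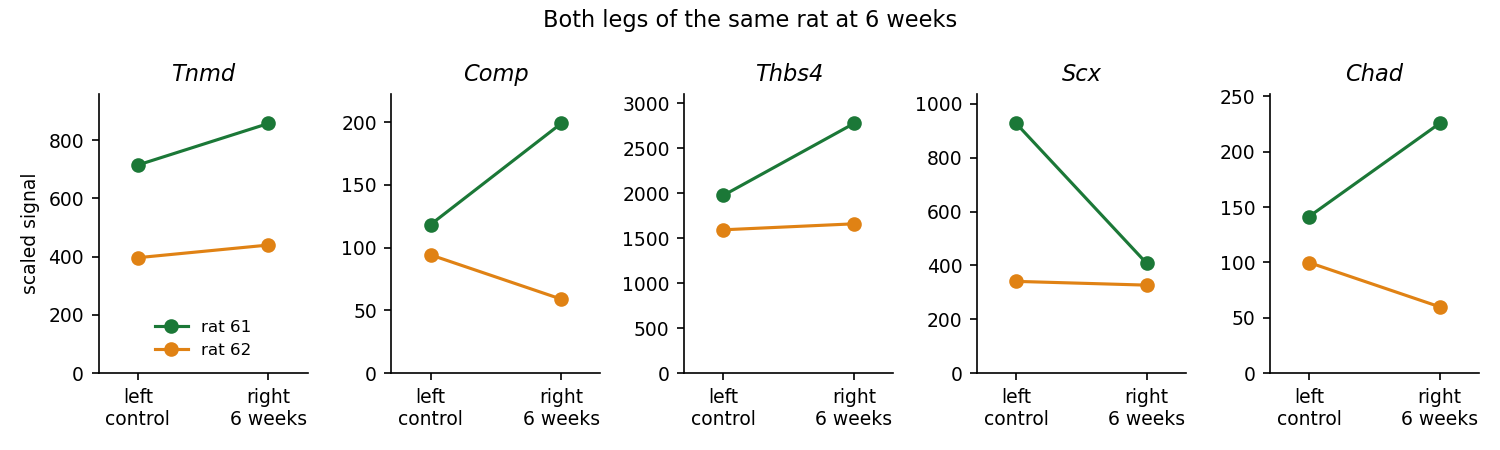
Scaled signal (axis from 0) in the left control and the right 6-week muscle of rats 61 and 62; lines join the 2 legs of a rat. Comp and Chad are higher on the right in rat 61 and lower in rat 62, Scx is 928 on the left and 408 on the right in rat 61, and the slight rise of the Tnmd lines is not seen in the deposited signals.

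A slope on log2 of the week over the 10 tenotomized muscles gives the change per doubling of the time. It fits a straight line, and the levels did not fall steadily. Geometric means of Thbs4 at weeks 1, 2, 3, 4 and 6 were 4611, 5020, 5397, 4847 and 2145. Those of Comp were 613, 315, 874, 694 and 108, and those of Tnmd 897, 3084, 3378, 2372 and 614. The shape of the course was not tested. Thbs4 had a slope of -0.72 per doubling (SE 0.13, limma adjusted p = 0.0102) and Comp of -0.90 (SE 0.22, adjusted p = 0.0249). Tnmd had a slope of -0.81 (SE 0.30, adjusted p = 0.0773), Chad of -0.29 (SE 0.23, adjusted p = 0.381) and Scx of -0.07 (SE 0.12, adjusted p = 0.715). Falling slopes were called for 2 of the 5 genes and 7.15% of all genes. The calls rested on the 22-week muscle: without it Thbs4 had -0.49 (adjusted p = 0.0844) and Comp -0.72 (adjusted p = 0.18), and 138 genes of all were called in place of 1728. Without rat 13 at 1 week the Tnmd slope passed (-1.18, adjusted p = 0.0133).

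The 22-week muscle was the lowest of all 14 for each of the 5 genes. It read 54.5 for Tnmd where the next lowest muscle read 258, 26.98 against 58.98 for Comp, 367 against 1243 for Thbs4, 11.2 against 49.99 for Chad and 291 against 327 for Scx. The Chad signal of this muscle was close to the floor of 9.71 and under the filter signal of 22.1. How far it lay below the others is thus uncertain, as are the Chad changes that include it. The same muscle held the lowest summed signal of the other tendon matrix genes (8039.5, where the controls ran from 16489 to 23567) and of fibroblast markers (6612, where the controls ran from 11714 to 13073). Its 3′ to 5′ ratio was 2.78 for Gapdh and 3.74 for actin. Neither ratio set it apart: control 1 also had 2.78 for Gapdh, and the 2-week muscle of rat 27 had 3.87 for actin. With 1 muscle at 22 weeks, time and this muscle cannot be told apart.

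Levels of 2 genes were also compared across the 6 short-term muscles, over 10 pairs. The r without 2 muscles leaves out those farthest from the median of the pair's first gene, in the order Tnmd, Scx, Comp, Thbs4, Chad. It rests on few muscles, and the muscles left need not be the same from pair to pair. Tnmd and Thbs4 had the highest Pearson's r, 0.92 (exact permutation p = 0.0111, 0.111 after adjustment over the 10 pairs) and Spearman's rho = 0.83 (exact permutation p = 0.0583, adjusted 0.194), and r = 0.78 without the 2 muscles farthest from the median. Scx and Tnmd gave r = 0.78 (exact permutation p = 0.0361, adjusted 0.120; rho = 0.83, p = 0.0583, adjusted 0.194), which was 0.41 without the 2 farthest. Tnmd and Comp, which rose by like amounts as groups, gave r = 0.24 (exact permutation p = 0.672, adjusted 0.840; rho = -0.03, p = 1, adjusted 1). The order of the pairs did not hold: Scx and Thbs4 had the same rho of 0.83, and without the 2 farthest muscles Comp and Thbs4 (r = 0.99), Tnmd and Chad (0.989) and Comp and Chad (0.97) were above Tnmd and Thbs4. None of the 10 pairs passed after adjustment.

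Over all 14 arrays, the profile most like Tnmd was that of Tril (r = 0.965), followed by Rdh11 (0.960) and Clec11a (0.958). For Comp these were Psmb8, an immunoproteasome subunit (0.95), LOC100910973 (0.95) and Parp9 (0.94), and for Thbs4 Pdgfrl (0.98), Lhfpl2 (0.97) and Ccl21, a chemokine (0.97). For Chad they were Omd, another leucine-rich repeat protein of matrix (0.87), Ecrg4 (0.87) and Arhgap6 (0.85), and for Scx Tead2 (0.84), Ptprs (0.815) and Kdelr1 (0.807). These are descriptions over 14 arrays that share the difference between groups, and the top percentile of all tested genes began at r = 0.906 with Tnmd, 0.907 with Thbs4, 0.849 with Comp, 0.645 with Chad and 0.609 with Scx.

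Other genes of the tendon programme were taken from 2 lists. Of 30 tested matrix genes of tendon 25 were higher in short-term muscle and 0 lower. Of all genes 17.9% were higher and 26.5% lower. The list had a median change of 2.12, where all tested genes had -0.12. Fmod (0.83, limma adjusted p = 0.191), Fibin (0.95, 0.106), Dcn (0.57, 0.158), Omd (0.14, 0.770) and Clec3b (-0.17, 0.888) were not called. These uncalled genes were named after their values were seen. Postn (periostin) rose by 3.70 (SE 0.63, limma adjusted p = 0.000305), Ccn5 by 3.50 (SE 0.43, adjusted p = 3.3e-05), Thbs2, another thrombospondin, by 3.30 (SE 0.51, adjusted p = 0.000167) and Lox, which crosslinks collagen, by 3.14 (SE 0.37, adjusted p = 2.6e-05). Thbs3, another thrombospondin of this list, named after its value was seen, rose by 2.38. In long-term against short-term muscle 28 of the 30 were lower (median -2.11), where 17.4% of all genes were. Ccn4, named after its values were seen, counts among both the 25 and the 28. Its geometric means were 15.5 in control, 32.3 in short-term and 11.7 in long-term muscle. Outside short-term muscle it thus lay under the filter signal of 22.1, and short-term arrays alone could bring it into the test. Of 16 tested regulators and ligands of tendon 6 were higher and 1 lower in short-term muscle (median 0.21). Of all genes these shares were 17.9% and 26.5%. Tgfb3, a ligand that induces Scx in tendon development, rose by 1.34 and Pdgfra by 1.19, and Eya1, a transcriptional coactivator, fell by 1.47. Tgfb1 was also called higher, but its geometric mean was 16.5 in control and 17.8 in long-term muscle, under the filter signal of 22.1, and 73.7 in short-term muscle, so the size of its change is uncertain. The filter asked for 4 bright arrays, which the 6 short-term arrays could give alone. In long-term against short-term muscle 7 of the 16 were lower and 1 higher (median -0.46), where 17.4% of all genes were lower.

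Read as wholes, the tendon lists differed in mean log2 level between short-term and control muscle by 2.04 for matrix and 0.34 for regulators. Both passed (exact 2-sided permutation p = 0.00952 each, adjusted 0.0464 over 39 tests). The lists of the cartilage programme did not pass as wholes, read over all their genes on the array, tested or not (25 of matrix, 18 regulators). A pass does not rank lists by size, since the difference for cartilage matrix exceeded that for tendon regulators. The mean log2 level of short-term against control muscle differed by 0.68 for matrix (exact 2-sided permutation p = 0.0190, adjusted 0.0741 over 39 tests). It differed by 0.20 for regulators (exact permutation p = 0.0476, adjusted 0.143). Up to 7 matrix genes on a short-term array and 8 on a control array lay at the floor. Summed signals of matrix ran from 7221 to 11998 in short-term and from 4021 to 4662 in control muscle. Those of regulators overlapped (4099 to 6310 and 4073.5 to 4739.5). Of 14 tested matrix genes of cartilage 7 were higher in short-term muscle and 0 lower (median 0.63). Of all genes 17.9% were higher and 26.5% lower. In long-term against short-term muscle 7 of the 14 were lower (median -0.67), where 17.4% of all genes were. Cilp2, the relative of Cilp, rose by 2.53 (SE 0.56, limma adjusted p = 0.00212), Vcan, a large proteoglycan, by 2.21 (SE 0.32, adjusted p = 9.2e-05) and Mgp, an inhibitor of calcification, by 0.74 (SE 0.21, adjusted p = 0.00998). The other 4 called genes had overlapping arrays. Col11a1, a fibrillar collagen of cartilage, had the largest change of the list, 3.13 (SE 0.69, adjusted p = 0.00194), from a geometric mean of 71.05 to 623, and Matn2 rose by 2.37 (adjusted p = 0.00102). Acan, the large proteoglycan of cartilage, and Col27a1 were dim outside short-term muscle, so the size of their change is uncertain. Both are among the 7 called, and short-term arrays alone could bring them into the test. Acan had geometric means of 18.8 in control, 121 in short-term and 12.5 in long-term muscle, and Col27a1 of 11.8, 34.9 and 10.5. Another 11 genes of the list did not pass the filter, with highest signals between 9.96 (Ncan) and 37.7 (Col2a1). Col2a1, the main collagen of cartilage, had a median of 9.71, the floor, in control and of 24.8 in short-term muscle. Cnmd, the cartilage relative of Tnmd, had medians of 14.6 and 16.1. Col11a1, Matn2, Acan, Col27a1, Ncan, Col2a1 and Cnmd were named after their values were seen.

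Of 12 tested regulators of cartilage 3 were higher and 1 lower in short-term muscle (median 0.02), where 17.9% of all genes were higher and 26.5% lower. Bmp6 fell by 0.51. Runx1 rose by 1.92 (SE 0.40, limma adjusted p = 0.00141), from a geometric mean of 172 in control to 654 in short-term muscle. Chrd rose by 0.80 (SE 0.21, adjusted p = 0.00566). The arrays of Runx1 and Chrd overlapped, and both rises were named after their values were seen. Pth1r, the receptor of parathyroid hormone and its relative, was called higher, with a geometric mean of 70.7 in short-term muscle against 19.0 in the controls, the latter under the filter signal. In long-term against short-term muscle 3 regulators were lower and 1 higher (median 0.03), where 17.4% of all genes were lower. Runx1 fell there by 2.22 (limma adjusted p = 0.000535) and Chrd by 0.96 (adjusted p = 0.00173), both without overlap. Of 3 tested bone genes 1 was higher in short-term muscle (median 0.96).

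**Figure D4:**
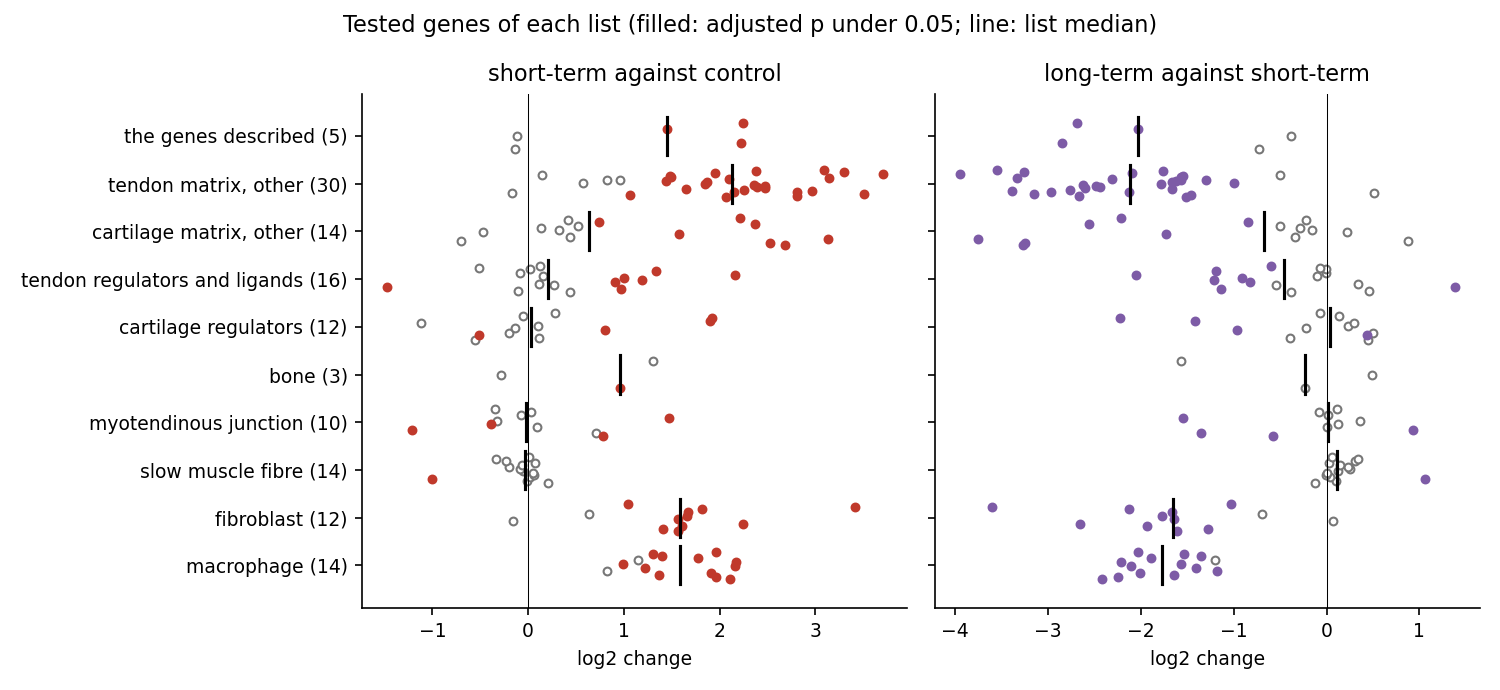
Log2 change of each tested gene of 10 lists in short-term against control (left) and long-term against short-term (right); filled points passed an adjusted p of 0.05, vertical lines are list medians, and the number of tested genes stands beside each name. Tendon matrix genes have a median of 2.12 on the left and -2.11 on the right, and slow fibre genes of -0.03 and 0.11.

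Markers of other cell types moved along with Tnmd, Comp and Thbs4. In short-term against control muscle 17.9% of all genes were called higher and 26.5% lower. Of 12 fibroblast markers 10 were higher in short-term muscle (median 1.59), and their summed signal ran from 21603 to 34641, against 11714 to 13073 in the controls and 6612 to 15926 in long-term muscle, with 0 at the floor. Of 14 macrophage markers 12 were higher (median 1.58), with sums from 5844 to 11390, against 1839.5 to 3696 in the controls and 1556 to 3805 in long-term muscle, and at most 1 at the floor on any array. The mean log2 level of either list differed between short-term and control with p = 0.00952, the smallest this design allows, and 0.0464 adjusted over 39 such tests (exact 2-sided permutation tests). Near the shares of all genes, 2 of 10 markers of the junction between muscle and tendon were higher and 2 lower (median -0.02). Their sums ran from 7800 to 14734 in short-term and from 7948 to 14023 in control muscle, and Col22a1, the collagen of that junction, named after its value was seen, had a change of 0.09 (adjusted p = 0.770). The remaining lists are read against the 17.9% of all genes called higher and the 26.5% called lower. Of the 14 genes of slow fibres 1 was lower (median -0.03), and of 8 endothelial markers 1 was lower (median 0.02). Of 6 adipocyte markers 1 was higher and 1 lower (median 0.93), of 5 Schwann cell markers 3 were higher (median 0.85) and of 9 smooth muscle and pericyte markers 1 was higher (median 0.37). The mean levels of these lists, over all their genes on the array, did not pass the exact permutation test over the same 39 tests. The adjusted permutation p was 0.784 for slow fibres, 0.820 for endothelial, 0.288 for adipocyte, 0.288 for Schwann cell, 0.501 for smooth muscle and 0.795 for junction markers. Their part in the results for Tnmd, Comp and Thbs4 was not tested beyond the ratios to fibroblast markers that follow.

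Each gene was also set against the mean log2 level of the 12 fibroblast markers on the same array, a measure added after the values were seen. For Thbs4 this log2 ratio was 2.065 ± 0.268 (SD, n = 6) in short-term and 2.156 ± 0.292 (n = 4) in control muscle, a difference of -0.09 (exact 2-sided permutation p = 0.638, adjusted 0.657 over 15 tests). Tnmd and Comp differed by 0.70 and 0.68 (exact permutation p = 0.314 each, adjusted 0.428). Scx and Chad differed by -1.65 and -1.67 (exact permutation p = 0.0190 each, adjusted 0.142), with overlapping arrays. None of the 15 tests passed after adjustment. A ratio within an array shows unequal change and not, by itself, which of its parts changed. In short-term against control muscle the mean of the fibroblast list differed by 1.54. The genes themselves had changes of -0.11 for Scx, -0.13 for Chad, 1.45 for Thbs4, 2.24 for Tnmd and 2.22 for Comp.

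**Figure D5:**
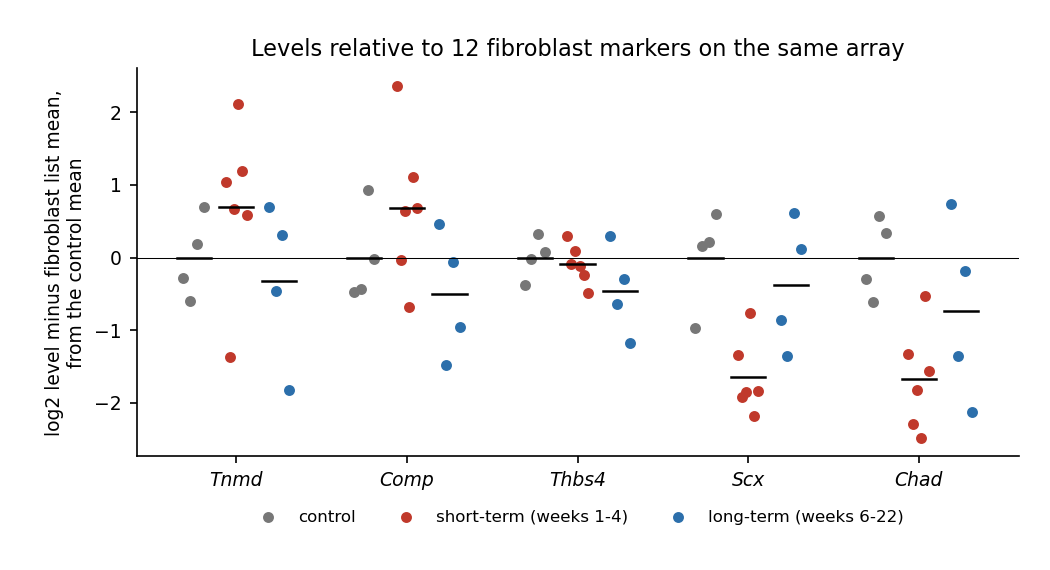
Log2 level of each gene minus the mean log2 level of 12 fibroblast markers on the same array, drawn from the control mean; points are muscles and short black lines group means. Short-term means are -1.65 for Scx and -1.67 for Chad, -0.09 for Thbs4 and 0.70 and 0.68 for Tnmd and Comp.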

How the data were processed

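The arrays (Affymetrix, rat genome) measured RNA of 14 soleus muscles, 1 array each. The authors' deposited values are linear MAS5 probe set signal intensity, per the submitters' processing notes; version, scaling target and detection calls are not given in the sources used here. Precision is limited by the number of arrays.

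Signals were taken to log2 and each array shifted to a common median over all probe sets. The 57 control probe sets were left out, and 20826 of the others carried 1 gene symbol, 436 several and 9780 none. Each gene was read from its brightest probe set by mean signal. Genes entered the test when at least 4 arrays exceeded the 40th percentile of all signals (22.1). Each array was then shifted to a common median over the tested genes, so that printed and tested changes are the same, and values under the pooled 25th percentile (signal 9.71) were raised to it. Groups were compared with limma 3.58.1 (R 4.3.3, intensity trend), and lists and ratios with exact permutation tests (scipy 1.17.1). The fit takes no account of the 2 rats with 2 arrays each, and its p-values measure only the spread between these muscles; the rat as a random block (correlation 0.488 over genes) is an alternative. The genes, lists and tests were chosen with earlier results of these data known. Gene symbols are those of the platform annotation. Alternatives changed the scaling, floor, filter, choice of probe set, trend and block, or left out muscles. Named genes are the measured members, up to 4 per list and comparison with the largest change among those past the threshold without overlap, from which the text takes a part, and the 3 most similar profiles per member.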

Additional observations from a re-analysis of the deposited data

Results flagged for a closer look

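Tnmd, Comp and Thbs4 differed between the short-term and the long-term muscles, by the direct test of one against the other (limma, adjusted over all genes). The muscles came from different rats, so time after tenotomy and rat cohort cannot be told apart. The log2 difference was -2.68 for Tnmd (adjusted p = 0.00728), -2.85 for Comp (adjusted p = 0.000689) and -2.03 for Thbs4 (adjusted p = 0.000577). All 4 long-term muscles were below all 6 short-term muscles for Comp and Thbs4. For Tnmd, rat 13 at 1 week, at 372, lay below 3 long-term muscles. No muscle stood apart from its group by Dixon's criterion at 95% in the 15 combinations of gene and group.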

How the results depend on the processing

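The 6 called changes of Tnmd, Comp and Thbs4 between groups kept their direction under all 168 alternatives run, and 166 kept the call. The 2 losses are those given for Tnmd in short-term against control. Each of these genes had 1 probe set, so alternatives in the choice of probe set could reach them only through the other genes. With the rat as a random replicate block, Tnmd in short-term against control was 2.47 (limma adjusted p = 0.00851), and no call among the 5 genes between groups changed; the slope has no blocked value, since its 10 muscles came from 10 rats. Leaving out 1 muscle at a time gave 2 to 3 called genes in short-term against control, 3 in long-term against short-term and 0 in long-term against control.

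The slopes depended most on the choices. Called were 2 of the 5 genes, 1 with no filter, and 0 to 3 with 1 muscle left out. Comp lost its call with no filter (-0.87, adjusted p = 0.0640), without rat 12 (-0.79, 0.0666), without the 16-week muscle (-0.97, 0.0594) and without the 22-week muscle, as did Thbs4 without the latter. Over all genes 1728 slopes were called, 3903 with a common median over all probe sets, 1047 after quantile normalization, 1027 with no filter, and 138 to 2563 with 1 muscle left out. Without both 1-week muscles, an alternative chosen after seeing the data, 3044 were called and Tnmd had -1.49 (adjusted p = 0.0056). The cause was not tested.

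Values that never passed the test changed sign. For Scx, short-term against control was 0.10 after quantile normalization, 0.051 with a trimmed mean, 0.018 without both 1-week muscles and -0.37 to 0.11 with 1 muscle left out; week 2 was -0.11 with the median over all probe sets and -0.31 on the deposited scale; the slope was 0.024 with the median over all probe sets and -0.18 to 0.048 with 1 muscle left out. For Chad, short-term against control was 0.030 with a trimmed mean, 0.11 with the replicate block, 0.077 without both 1-week muscles and -0.42 to 0.059 with 1 muscle left out; long-term against short-term was -1.37 to 0.071 and the slope -0.45 to 0.14. Tnmd in long-term against control was -0.94 to 0.39. Other scalings put the share of higher calls among all genes, 60.1% in long-term against short-term, between 42.5% and 77.8%. Every probe set tested on its own, chosen after seeing the data, gave the same calls for the 3 genes between groups. With 1 probe set for each of them, this setting changed only the other rows of the fit and the adjustment, so it is no separate check of their values.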
